A study of Mus musculus with 6 samples.

Results

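The sarcomere is the contractile unit of heart muscle. Its thin filaments are built of actin, tropomyosin and the troponin complex, its thick filaments are crosslinked at the M-band, the Z-disc anchors the thin filaments of neighbouring sarcomeres, and titin spans from the Z-disc to the M-band. Tropomyosin and troponin control the access of myosin to actin as calcium rises and falls, and assembly factors and chaperones fold and place these proteins. The genes described here are 37 of the 54532 genes in the deposited count table, chosen by their symbols. They comprise 11 thin filament genes, 6 genes of titin, the M-band and cardiac myosin-binding protein C, 17 Z-disc and capping protein genes, and 3 assembly and chaperone genes, with the myosin chains left out. Each symbol was found once.

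The study compared the left ventricle of mice with extra HINT2, a mitochondrial protein of the histidine triad family, and of control mice after aortic banding (AB), which narrows the aorta and loads the heart with pressure. The 3 TG mice were HINT2CTG-Myh6Cre animals, in which a Cre driven by the Myh6 promoter and activated by tamoxifen deletes a floxed stop ahead of a CAG-driven human HINT2 sequence in cardiomyocytes. The 3 NTG mice were C57BL/6J animals. Mice of both groups were male, had AB at 8 to 10 weeks of age and were sampled 4 weeks later, with 1 poly-A RNA-seq library per heart, so that both groups carry the pressure load and no sham-operated heart enters the comparison. Whether NTG mice carried Cre or received tamoxifen is not given in the sources used here, and any effect of Cre or tamoxifen cannot be told apart from that of HINT2.

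The libraries held 14863568 to 17581220 counts on genes in NTG and 14944465 to 17235802 in TG. Mouse Hint2 had 12, 545 and 559 counts in NTG and 793, 828 and 859 in TG, so the library labelled NTG 1 held far fewer Hint2 counts than the other NTG libraries, and results are given with and without it. Whether reads of the human sequence were counted on mouse Hint2 was not tested. On the first principal component of log2 CPM, which took 52.3% of the variance, NTG 1 lay at -5.1, between NTG 2 and NTG 3 at 55.7 and 29.3 and TG 1, TG 2 and TG 3 at -32.7, -10.7 and -36.5. The labelled tissue was checked against 12 cardiomyocyte markers, and all 12 were above 1 CPM in every library. Of 9 atrial markers all had counts, and their sum, mostly Clu, which other cells also express, was 1162 to 1871 CPM in NTG and 646 to 974 CPM in TG. The atrial light chain Myl7 was at 19.5, 0.159 and 0 CPM in NTG and 1.59, 7.67 and 64.4 CPM in TG, and Myl4 at 39.6, 1.96 and 2.14 CPM and 2.67, 17.4 and 77.8 CPM, so that NTG 1 and TG 3 stood apart in these genes. Of 12 skeletal muscle markers, Myh4 and Tnnc2 were at 0 in every library, and the summed level of the list was 5.10 to 6.69 CPM in NTG and 9.09 to 11.0 CPM in TG. Casq1 was the largest part of this sum, at 2.52 ± 1.25 CPM in NTG and 5.80 ± 1.28 CPM in TG. Only 4 of the 12 had enough counts to be tested. Of these 3 had log2 fold changes above 0, and Tnnt3 was at -0.69 ± 0.41.

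Together the 37 genes took 3.48% to 4.08% of all counts in NTG and 4.09% to 4.14% in TG. CPM is the count scaled to a common library size by TMM. In CPM their sum overlapped between the groups, at 32463 to 40889 in NTG and 40603 to 44378 in TG. Levels between genes are given as CPM per kilobase of the gene length in the table. Actc1, which encodes cardiac alpha-actin, stood highest, at 4337 ± 986 CPM per kilobase in NTG and 5495 ± 470 in TG (mean ± SD, n = 3 each). It was followed in NTG by Tnnc1, the troponin C of heart and slow muscle, at 1488 ± 163, Cryab, a small heat shock protein that binds desmin and titin, at 1226 ± 84.9, Tpm1, alpha-tropomyosin, at 798 ± 75.6, Tnni3, cardiac troponin I, at 785 ± 196, and Mybpc3, cardiac myosin-binding protein C, at 767 ± 97.2. Tpm1, Tnni3 and Mybpc3 lay within their SD of each other, as did Tnnt2, Tcap and Actn2 next in order at 427 ± 66.6, 424 ± 63.3 and 413 ± 53.2. In TG, Tnni3 took rank 3 at 1196 ± 215, ahead of Cryab at 1127 ± 117, a gap within the SD of both. Ttn, the longest gene model of the set, was at rank 29 in both groups at 20.7 ± 2.99 and 23.6 ± 0.533. At the foot of the order stood Myom3 at 0.766 ± 0.197, Myoz1 at 0.484 ± 0.0679 and Tnni1, the slow skeletal troponin I that the fetal heart uses, at 0.0824 ± 0.0273 in NTG and 0.0912 ± 0.0463 in TG. The troponin I RNA of these ventricles was thus almost all of the adult form, with Tnni1 at 0.00378% to 0.0149% of Tnni3 per length over the 6 libraries.

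The promoters of these genes are shown for 4 members, Actc1 as the most abundant, Tnni3 as the thin filament gene with the smallest p, Myoz2 as a gene whose groups did not overlap, and Synpo2l as the well-counted gene with the lowest fitted value, none of which passed the test after adjustment. They are the 250 bases upstream of a RefSeq start on GRCm38.p6, printed 5′ to 3′ on the gene's strand, with a CArG box (the element bound by serum response factor) or a MEF2 element in capitals where one was found. Actc1 is the minus strand of chr2:114052876-114053125, with a CArG box at -47 to -38 from the start. Tnni3 is the minus strand of chr7:4522529-4522778 and held neither element. Myoz2 is the minus strand of chr3:123034988-123035237, with a MEF2 element at -33 to -24, and Synpo2l is the upstream one of its starts, the minus strand of chr14:20668355-20668604, with a MEF2 element at -109 to -100.
Actc1: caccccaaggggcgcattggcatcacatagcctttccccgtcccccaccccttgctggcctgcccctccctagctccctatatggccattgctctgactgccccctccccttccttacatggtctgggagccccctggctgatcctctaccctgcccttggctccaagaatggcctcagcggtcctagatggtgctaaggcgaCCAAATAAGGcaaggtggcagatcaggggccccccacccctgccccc
Tnni3: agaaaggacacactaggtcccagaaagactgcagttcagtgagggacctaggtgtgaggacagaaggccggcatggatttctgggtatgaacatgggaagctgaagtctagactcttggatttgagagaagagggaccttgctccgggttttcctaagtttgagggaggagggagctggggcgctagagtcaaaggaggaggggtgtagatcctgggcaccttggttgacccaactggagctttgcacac
Myoz2: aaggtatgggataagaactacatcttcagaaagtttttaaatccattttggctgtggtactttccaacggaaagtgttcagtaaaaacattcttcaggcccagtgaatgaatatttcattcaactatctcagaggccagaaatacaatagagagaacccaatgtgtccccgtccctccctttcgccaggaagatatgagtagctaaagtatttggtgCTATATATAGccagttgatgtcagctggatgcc
Synpo2l: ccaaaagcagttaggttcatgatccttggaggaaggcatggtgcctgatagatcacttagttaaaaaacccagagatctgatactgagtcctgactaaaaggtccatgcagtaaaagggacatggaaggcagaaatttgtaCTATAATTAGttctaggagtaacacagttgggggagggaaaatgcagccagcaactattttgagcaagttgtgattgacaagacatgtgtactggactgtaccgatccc

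A promoter sequence was at hand for 31 of the 37 genes, with 46 windows among them because some genes have several starts. Those of Lmod3, Myom2, Tcap, Myoz1, Myot and Cryab were not analysed here. A CArG box stood in 4 of the 31 genes (12.9%), Actc1, Ldb3, Myom1 and Nebl, against 1.624% of 27025 genes in the promoter table. A MEF2 element stood in another 4 (12.9%), Mybpc3, Myoz2, Synpo2l and Ttn, against 0.592%. The MCAT motif CATTCC, read on both strands, was in 9 (29.03% against 14.36%), the GATA motif AGATAA, on both strands, in 6 (19.35% against 11.43%), the E-box CANNTG in 26 (83.87% against 69.3%) and TATAAA on the gene's strand in 2 (6.452% against 8.936%). These members have more windows a gene than the 27025 genes with their 32851 windows, which raises the share of genes with a match. Per window, a CArG box was in 5 of the 46 (10.87%) against 1.467% of all windows, a MEF2 element in 4 (8.696%) against 0.5084%, MCAT in 9 (19.57%) against 12.64%, the GATA motif in 7 (15.22%) against 9.988%, the E-box in 34 (73.91%) against 66.22% and TATAAA in 2 (4.348%) against 7.592%. Motifs were allowed to overlap each other, and a match describes letters in the window, not binding. Fitted log2 fold changes of the genes with a MEF2 element lay on both sides of 0, at -0.74 for Synpo2l and at 0.33, 0.19 and 0.17 for Myoz2, Ttn and Mybpc3.

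The comparison of TG with NTG asks whether these genes differed between pressure-loaded hearts with and without extra HINT2. After filtering low counts 36 of the 37 genes were tested, all but Tnni1. None was called at an adjusted p under 0.05 with a log2 fold change over 0.5 in size by edgeR's quasi-likelihood test, adjusted over all 14774 genes tested, and the smallest adjusted p among them was 0.207. That test called 0% of all genes as well. DESeq2 also called 0 of the 36 genes, against 1.54% of all genes higher and 2.4% lower (3.95% in all), and limma-voom and edgeR's likelihood-ratio test called 0 of them, against 0.00677% and 3.69% of all genes.

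At an unadjusted p under 0.05 in edgeR, 4 of the 36 genes were higher in TG (Obsl1, Tnni3, Tcap and Tpm2) and 0 were lower. This is 11.1% of the genes, below the 18.6% of all genes tested (8.83% higher and 9.76% lower). Fitted values above 0 were found for 22 genes and below 0 for 14, that is 61.1% above 0 against 48.7% of all genes, and the median log2 fold change was 0.14 against -0.0081 over all genes. The 3 values of each group did not overlap for 4 genes, Obsl1 and Myoz2 with TG higher and Myoz1 and Pdlim5 with TG lower, or 11.1% against 23.5% of all genes (11.2% higher and 12.3% lower). In 31 of the 36 genes the fitted log2 fold change was under 0.5 in size, and Tcap, Tnni3, Lmod3, Synpo2l and Myoz1 were past it.

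**Figure D1:**
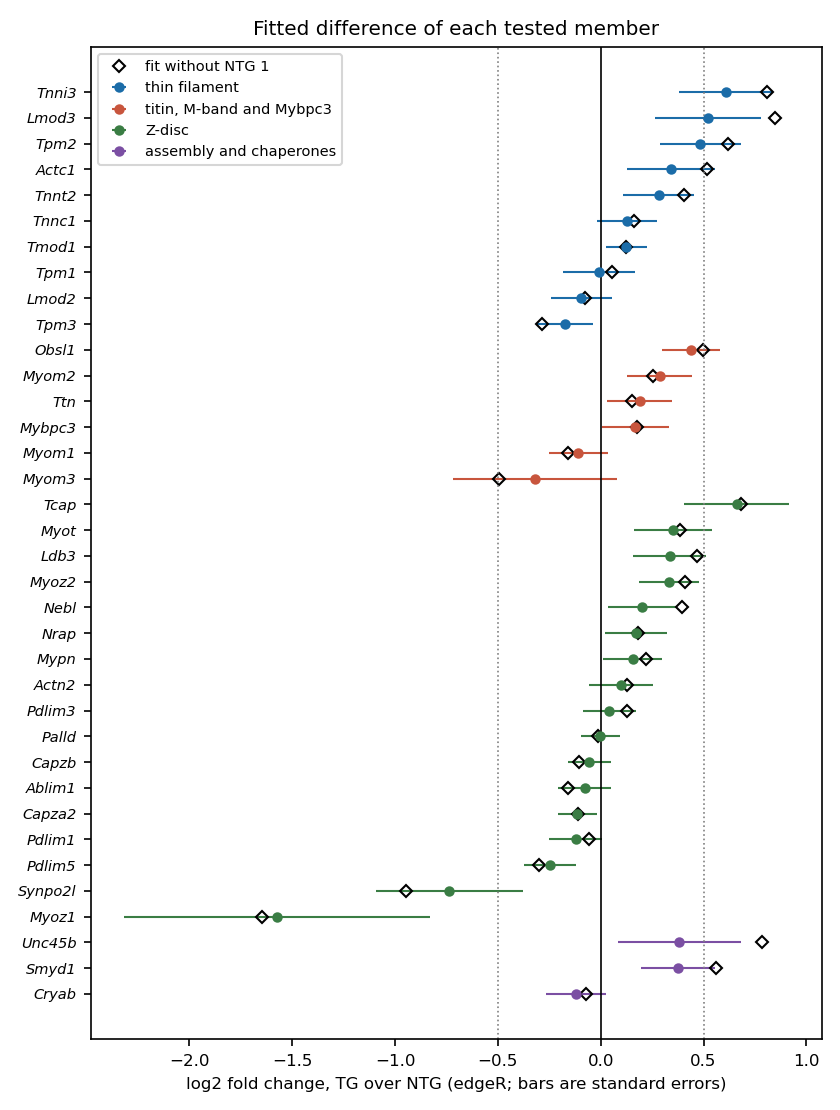
Log2 fold change of TG over NTG (x axis) for the 36 tested genes (y axis, grouped by role), with filled points from the fit of all 6 libraries, bars for standard errors, open diamonds from the fit without NTG 1 and dotted lines at -0.5 and 0.5. Values ran from -1.57 for Myoz1 to 0.66 for Tcap, and without NTG 1 those of Lmod3 and Unc45b moved to 0.85 and 0.78.

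Marker sums of several cell types differed between the libraries. The summed level of the 12 cardiomyocyte markers was 21218 to 37821 CPM in NTG and 35306 to 43097 CPM in TG, that of 10 fibroblast markers 7101 to 12367 and 4687 to 6765 CPM, that of 10 macrophage markers 1116 to 2001 and 808 to 1159 CPM, and that of 6 erythroid markers 1310 to 2247 and 762 to 908 CPM. The fibroblast and erythroid sums did not overlap between the groups, the cardiomyocyte and macrophage sums did, and the sum of 10 endothelial markers covered the same range, at 2316 to 2558 CPM in NTG and 2311 to 2581 CPM in TG. In NTG 2 the fibroblast sum was led by Postn and Col3a1, at 3566 and 2688 CPM. Of the 10 fibroblast markers 9 had fitted values below 0, from -2.54 for Postn to -0.05 for Tcf21. Gsn was at 0.24 ± 0.23. Of the 12 cardiomyocyte markers 10 were above 0, with Slc8a1 at -0.24 ± 0.10 and Corin at -0.05 ± 0.10. NTG 2 was lowest of the 6 libraries in the cardiomyocyte sum and in 10 of its 12 markers. It was highest in the fibroblast, macrophage and erythroid sums and in 8 of the 10 fibroblast markers, though lowest in Gsn. It was also the lowest of the 6 libraries for 22 of the 36 genes (61.1% against 27.6% of all genes) and the highest for 3, against 27.1% of all genes. In bulk tissue, fewer cells of a type and less RNA per cell cannot be told apart, and the part of cell makeup in the values below was not tested.

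**Figure D2:**
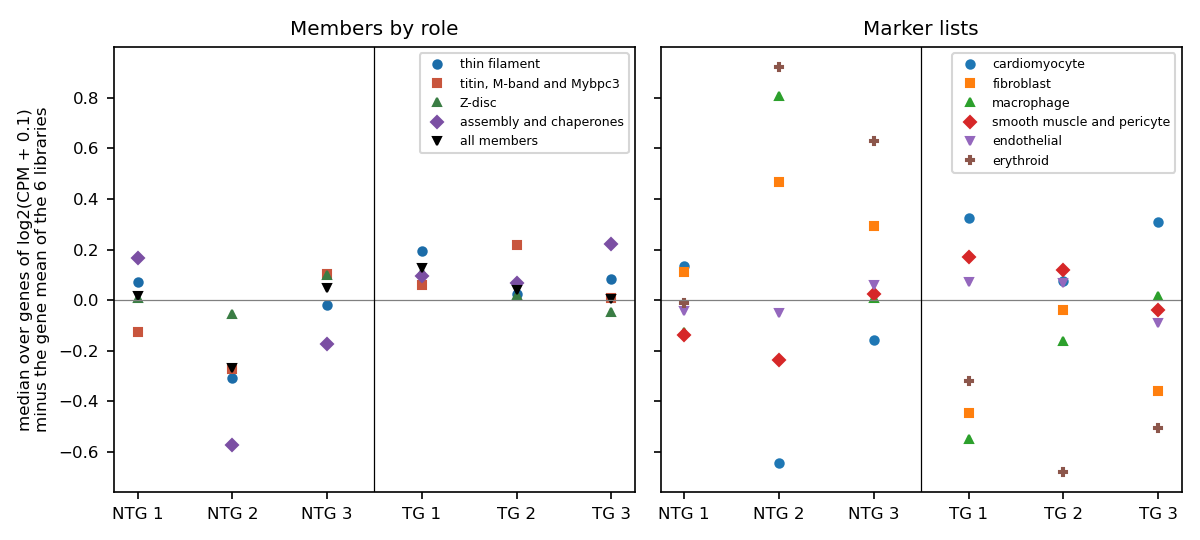
Median over the genes of each list of log2(CPM + 0.1) minus the gene's mean over the 6 libraries (y axis), by library (x axis), for the members by role on the left and for marker lists on the right. NTG 2 was lowest for the 36 genes together, at -0.27, and for the cardiomyocyte markers, at -0.64, and highest for the fibroblast markers, at 0.47.

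Of the thin filament genes, 10 were tested. At an unadjusted p under 0.05 in edgeR, 2 were higher in TG and 0 were lower, against 8.83% and 9.76% of all genes. Fitted values were above 0 for 7 genes, and the median log2 fold change was 0.20, or 0.13 without NTG 2. Tnni3 was at 2042, 1236 and 1579 CPM in NTG and 2628, 1966 and 2807 CPM in TG, where the library NTG 1 lay above TG 2. Its log2 fold change was 0.61 ± 0.23 (SE, edgeR), with an adjusted p of 0.224, and 4.17% of its exon bases lie in Dnaaf3 on the same strand. Tpm2, beta-tropomyosin, which smooth muscle also expresses, was at 40.3, 24.4 and 37.7 CPM in NTG and 52.5, 50.5 and 40 CPM in TG, with a log2 fold change of 0.48 ± 0.20 and an adjusted p of 0.252. TG 3 lay just below NTG 1, and the summed smooth muscle and pericyte markers, all 10 of which had counts, were 1567 to 1989 CPM in NTG and 1727 to 2060 CPM in TG. Rgs5, a pericyte gene, made up most of that sum, at 1014 ± 152 CPM in NTG and 1043 ± 103 CPM in TG. Of the 10 markers 3 were higher in TG without overlap, against 11.2% of all genes. They were Myh11 at 52.4 ± 12.0 and 85.2 ± 7.27 CPM, Cnn1 at 5.34 ± 0.923 and 9.01 ± 1.45 CPM and Acta2 at 86.9 ± 2.93 and 116 ± 3.48 CPM (mean ± SD, n = 3 each). The groups overlapped in the other 7, among them the contractile genes Tagln, at a log2 fold change of -0.61 ± 0.55, and Lmod1, at 0.33 ± 0.23, and the median over the 10 markers was 0.13. DESeq2 called Myh11 and Cnn1 higher, where it called 1.54% of all genes higher. The part of smooth muscle in the Tpm2 values was not tested.

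Actc1 was at 8639, 5448 and 6963 CPM in NTG and 9732, 8253 and 8686 CPM in TG, and Tnnt2, cardiac troponin T, at 3849, 2821 and 3250 CPM and 4198, 3712 and 4144 CPM. Both had NTG 1 inside the TG range and NTG 2 as the lowest library, with log2 fold changes of 0.34 ± 0.21 and 0.28 ± 0.17 and adjusted p of 0.405 and 0.402 (edgeR). Actc1 shared no 50-base run with Acta1 or any other gene of the annotation. Tpm1 was at 5608, 4642 and 5276 CPM in NTG and 5824, 4549 and 5082 CPM in TG, a log2 fold change of -0.01 ± 0.17, so that the groups covered nearly the same range.

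Lmod3, a leiomodin that nucleates actin and lengthens thin filaments, was at 79.1, 36.7 and 52.5 CPM in NTG and 76.4, 75.6 and 89.0 CPM in TG, with a log2 fold change of 0.52 ± 0.26 and an adjusted p of 0.321 (edgeR). NTG 1 alone of the NTG libraries lay in the TG range. Its relative Lmod2 was at -0.10 ± 0.15 on the log2 scale, Tnnc1 at 0.13 ± 0.15 and Tmod1, which caps the pointed ends of thin filaments, at 0.12 ± 0.10. Tpm3, a tropomyosin of slow and non-muscle cells, was at 156, 219 and 182 CPM in NTG and 153, 175 and 165 CPM in TG, a log2 fold change of -0.17 ± 0.14. Its counts are uncertain because 23.2% of its 50-base runs occur elsewhere, mostly in Tpm3-rs7, and those of Tmod1 because 32.6% of its exon bases lie under Tstd2 on the opposite strand. Tnni1 had 3 to 9 counts per library, at 0.273, 0.212 and 0.405 CPM in NTG and 0.288, 0.512 and 0.185 CPM in TG, and at this depth no difference could be seen.

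**Figure D3:**
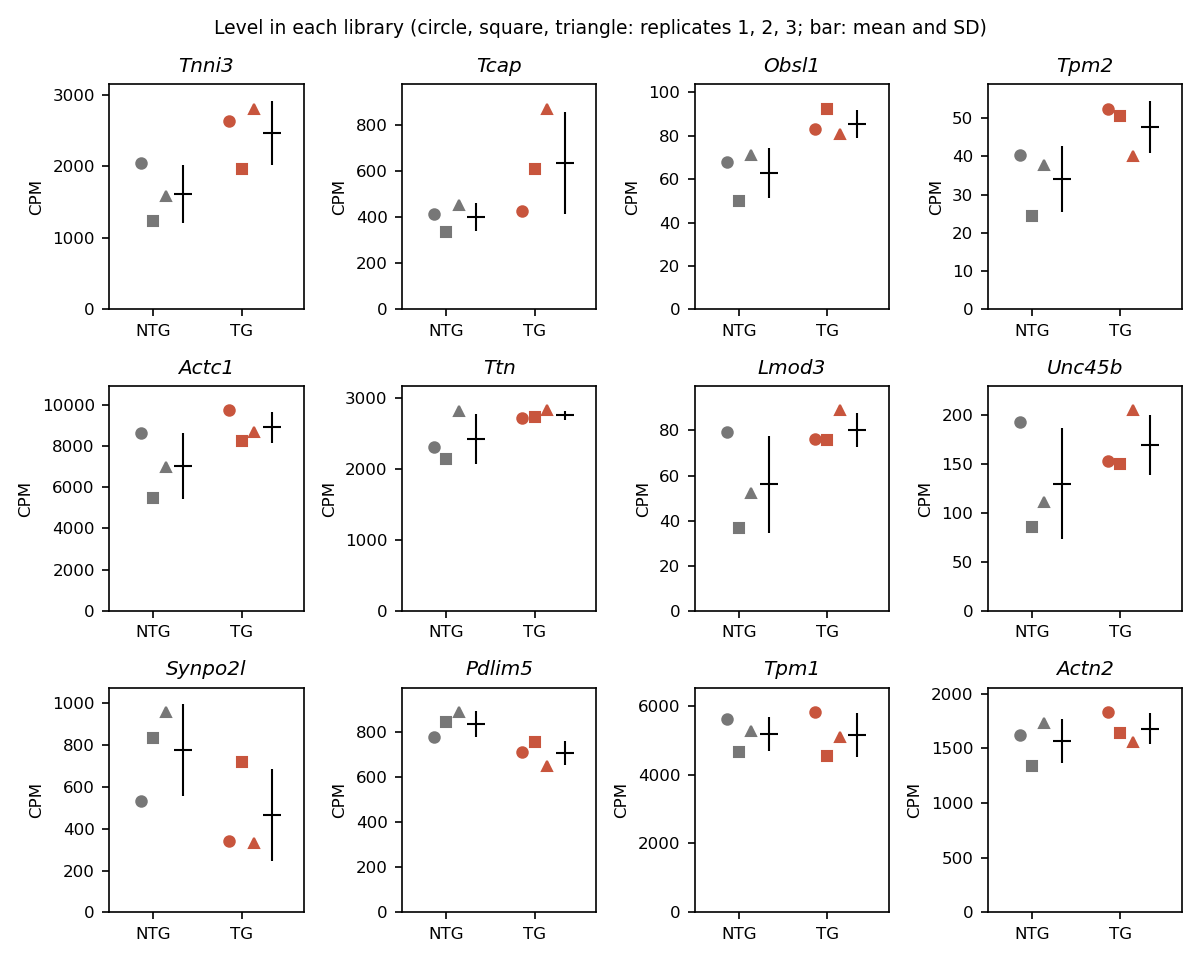
CPM (y axis, from 0) of 12 members in each of the 3 NTG and 3 TG libraries (circle, square and triangle for replicates 1, 2 and 3), with the mean and SD of each group as a bar. In Tnni3, Actc1, Lmod3 and Unc45b the NTG 1 circle lies at the top of its group and reaches the TG values, and in Synpo2l it lies at the foot of its group.

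Among the 6 genes of titin, the M-band and Mybpc3, 1 was higher in TG and 0 lower at an unadjusted p under 0.05 in edgeR. The shares of all genes were 8.83% and 9.76%. Fitted values were above 0 for 4 of the 6, and the median log2 fold change was 0.18, or 0.090 without NTG 2 and 0.28 without NTG 3. Obsl1, a cytoskeletal protein which links titin and myomesin at the M-band, had the smallest p of all members. It was at 68.1, 49.9 and 70.9 CPM in NTG and 82.9, 92.5 and 80.7 CPM in TG, with every TG library above every NTG library. Its log2 fold change was 0.44 ± 0.14 (adjusted p = 0.207, edgeR), and it lay at 0.30 to 0.53 when any 1 library was left out.

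Ttn was at 2303, 2138 and 2808 CPM in NTG and 2706, 2730 and 2824 CPM in TG, and Mybpc3 at 3247, 2765 and 3569 CPM and 3792, 3599 and 3372 CPM. In both genes NTG 3 reached the TG values, with log2 fold changes of 0.19 ± 0.16 and 0.17 ± 0.16 and adjusted p of 0.539 and 0.597 (edgeR). Of the myomesins, which crosslink the thick filaments, Myom1 was at 1239, 1218 and 1518 CPM in NTG and 1250, 1260 and 1175 CPM in TG. Myom2 was at 876, 832 and 1041 CPM and 1040, 1295 and 1019 CPM. Their log2 fold changes pointed in opposite directions, -0.11 ± 0.14 and 0.29 ± 0.16, and neither passed the test (adjusted p = 0.703 and 0.354). That of Myom1 was -0.0016 without NTG 3, and that of Myom2 was 0.17 without TG 2. Myom3, at 2.38 to 6.14 CPM over the 6 libraries, was at -0.32 ± 0.40.

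Of the 17 Z-disc and capping protein genes, 1 was higher in TG and 0 lower at an unadjusted p under 0.05 in edgeR. The shares of all genes were 8.83% and 9.76%. Fitted values were above 0 for 9 of the 17 and below 0 for 8, and the median log2 fold change was 0.042. Its sign turned when single libraries were left out (-0.014 without TG 1 and -0.0011 without NTG 2) and with scaling by library size alone (-0.042). Tcap, or telethonin, which joins the ends of titin molecules at the Z-disc, was at 415, 336 and 454 CPM in NTG and 428, 606 and 870 CPM in TG. Its log2 fold change of 0.66 ± 0.25 was the highest of the members (adjusted p = 0.231, edgeR). TG 1 lay inside the NTG range, so the difference rested on TG 2 and TG 3, and it was 0.36 without TG 3 and 0.88 without TG 1.

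Myoz2, calsarcin-1, which tethers calcineurin to alpha-actinin, was at 778, 597 and 728 CPM in NTG and 936, 811 and 898 CPM in TG, again without overlap, at a log2 fold change of 0.33 ± 0.15 (adjusted p = 0.272, edgeR). Its skeletal muscle relative Myoz1 was at 0.819, 1.06 and 0.868 CPM in NTG and 0.793, 0.0569 and 0.123 CPM in TG. These are 11, 1 and 2 counts in TG, so its log2 fold change of -1.57 ± 0.74 (adjusted p = 0.296) rests on very few reads. Actn2, the alpha-actinin of the Z-disc, was at 1625, 1341 and 1732 CPM in NTG and 1837, 1637 and 1562 CPM in TG, and its log2 fold change of 0.10 ± 0.16 was -0.0011 without NTG 2. Nrap, a scaffold of forming myofibrils, was at 855, 718 and 954 CPM and 953, 1026 and 866 CPM, at 0.17 ± 0.15.

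Synpo2l, an actin-binding Z-disc protein of the synaptopodin family, had a fitted value below 0. It was at 533, 832 and 958 CPM in NTG and 343, 719 and 333 CPM in TG, where TG 2 was inside the NTG range and NTG 1 below TG 2. Its log2 fold change was -0.74 ± 0.36 (adjusted p = 0.313, edgeR), and leaving out single libraries moved it between -1.20 and -0.55. Pdlim5, a PDZ and LIM domain protein of the Z-disc, was at 776, 844 and 890 CPM in NTG and 711, 754 and 649 CPM in TG, lower in TG without overlap but by 0.25 ± 0.13 on the log2 scale only (log2 fold change -0.25, adjusted p = 0.332). Capza2, a subunit of the capping protein of barbed ends, was at 171, 178 and 161 CPM and 160, 148 and 163 CPM, with a log2 fold change of -0.11 ± 0.09.

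None of the other Z-disc genes passed the test either. Ldb3 (Cypher) at 0.33 ± 0.18, Myot (myotilin) at 0.35 ± 0.19, Nebl (nebulette) at 0.20 ± 0.17, Mypn (myopalladin) at 0.15 ± 0.14 and Pdlim3 at 0.04 ± 0.13 had log2 fold changes above 0. Pdlim1 was at 209, 176 and 189 CPM in NTG and 198, 179 and 151 CPM in TG. Its log2 fold change was -0.12 ± 0.13, with Ablim1 at -0.08 ± 0.13, Capzb at -0.06 ± 0.10 and Palld (palladin) at -0.00 ± 0.09. The smallest adjusted p of these was that of Ldb3, 0.339 (edgeR). For Palld the 6 libraries lay within 179 to 202 CPM. Palld and the Pdlim genes are expressed outside cardiomyocytes as well, and 9.74% of the 50-base runs of Pdlim1 occur elsewhere, mostly in Gm5864.

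Of the 3 assembly and chaperone genes none was at an unadjusted p under 0.05 in edgeR, against 18.6% of all genes. Their median log2 fold change was 0.37, or 0.15 without NTG 2 and 0.22 without TG 3. Smyd1, a muscle methyltransferase needed for myofibril assembly, was at 458, 279 and 368 CPM in NTG and 493, 456 and 484 CPM in TG, with a log2 fold change of 0.37 ± 0.18 (adjusted p = 0.3, edgeR). Unc45b, a chaperone of muscle myosin, was at 193, 85.5 and 111 CPM in NTG and 153, 150 and 205 CPM in TG, with 0.38 ± 0.30. In all 3 genes NTG 1 was the highest NTG library, and in Smyd1 and Unc45b it lay in the TG range. Cryab was at 1945, 1695 and 1799 CPM in NTG and 1556, 1578 and 1865 CPM in TG, at -0.12 ± 0.15. The reads of Cryab and Unc45b are less certain because 17.0% and 9.04% of their exon bases lie under other genes on the opposite strand and the strand setting of the counting is not given in the sources used here.

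**Figure D4:**
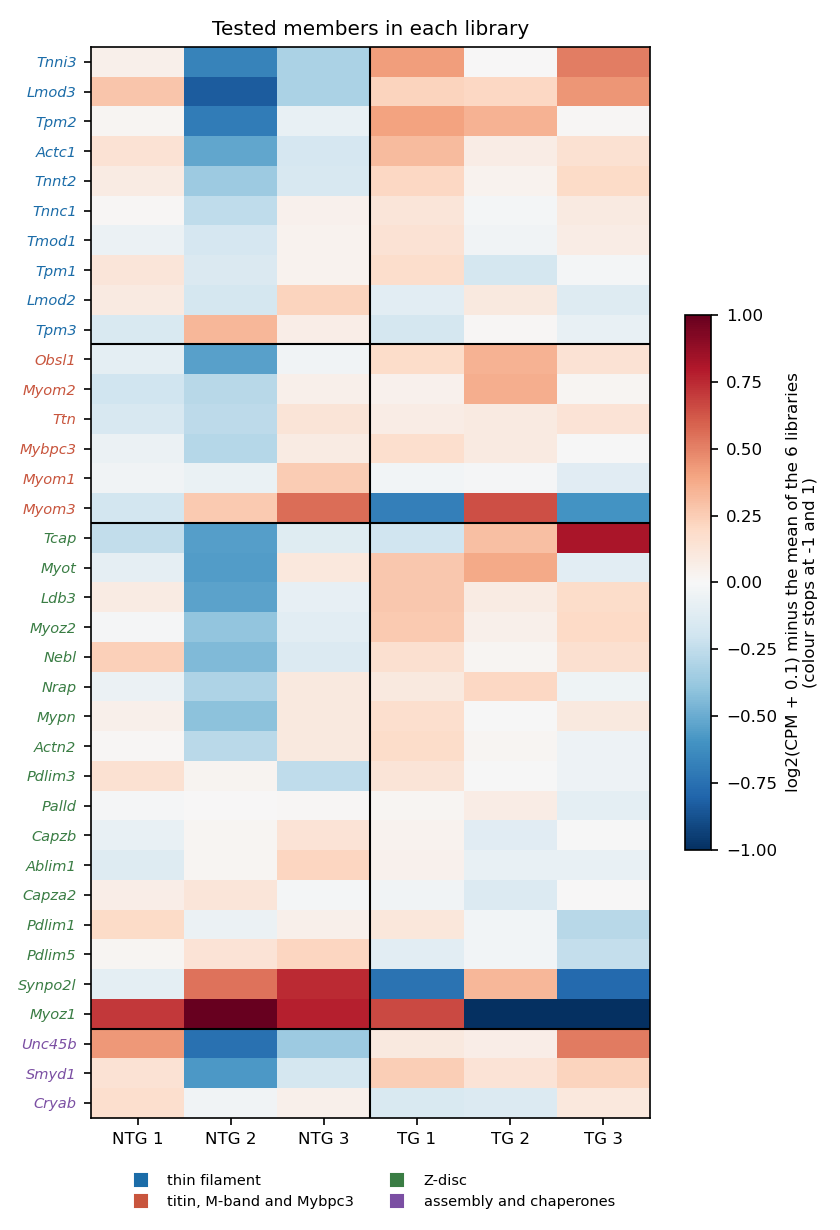
Each tested member (y axis, grouped by role and ordered by log2 fold change) in each library (x axis), coloured by log2(CPM + 0.1) minus its mean over the 6 libraries, with the colour stopping at -1 and 1. The NTG 2 column is the lowest of the 6 in 22 of the 36 genes, and the NTG 1 column lies inside the TG range in 20.

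Because NTG 1 stood apart from the other NTG libraries in Hint2, the counts of calls, of unadjusted p and of overlap were repeated without it. In NTG 1, 20 of the 36 genes (55.6%) lay inside the TG range and 9 (25%) below every TG library, against 49.1% and 24.9% of all genes, while in NTG 2, 22 (61.1%) lay below every TG library, against 35.8% of all genes. Without NTG 1, edgeR called 2 genes, Lmod3 at a log2 fold change of 0.85 ± 0.16 (adjusted p = 0.032) and Unc45b at 0.78 ± 0.18 (adjusted p = 0.0493), both higher in TG, and 0 lower. Over all genes that fit called 2.67% higher and 2.85% lower, so 2 of 36 is a share of the same order as the background. Among the 36 genes, 10 had an unadjusted p under 0.05 with TG higher and 2 with TG lower, against 13.7% and 13.3% of all genes, and 11 were higher without overlap and 4 lower, against 23.4% and 23.6%. DESeq2 without NTG 1 called Actc1, Tnni3, Lmod3, Smyd1 and Unc45b higher, at log2 fold changes of 0.52, 0.82, 0.85, 0.57 and 0.79, where it called 5.92% of all genes higher and 5.79% lower. NTG 1 and TG 3, the libraries with the most Myl7 and Myl4, were also the highest of their groups in Lmod3, Unc45b and Tnni3. The atrial markers Sln and Kcnj3 had the same order. Dkk3 and Clu were highest of their groups in NTG 2 and TG 2, and Stk39 and Bmp10 were highest in TG 1. Nr2f2 was the lowest of NTG in NTG 1. Actc1 and Smyd1 were highest in TG 1, not TG 3. The part of atrial tissue in these values was not tested. The fits without NTG 1 rest on NTG 2 and NTG 3, of which NTG 2 held the lowest cardiomyocyte and the highest fibroblast, macrophage and erythroid marker sums. Without NTG 2 instead, edgeR called 0 genes, the median log2 fold change of the 36 genes was 0.057, and those of Lmod3, Unc45b and Tnni3 were 0.29, 0.15 and 0.45. Leaving out NTG 2 also lowered by over 1.5 times the values of Tpm2 (0.29), Smyd1 (0.21), Actc1 (0.19), Tnnt2, Ldb3 and Myot (0.18 each). The same held for Ttn (0.11), Mybpc3 and Tmod1 (0.073 each), Nrap (0.068), Nebl (0.050), Tnnc1 (0.036) and Mypn (0.0089). Below 0, Tpm3 moved from -0.17 to -0.038.

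DESeq2 also made calls without 2 of the TG libraries. Without TG 1 it called Tcap higher, at 0.88 ± 0.23 (adjusted p = 0.016), against 0.679% of all genes higher and 0.501% lower. Without TG 2 it called Tnni3 higher, at 0.76 ± 0.23 (adjusted p = 0.0239), and Synpo2l lower, at -1.19 ± 0.25 (adjusted p = 0.00035), against 1.94% and 3.23%.

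Ratios of related genes within a library, in which library scaling cancels apart from the 0.1 CPM added to each gene, were compared for 12 pairs, of which 11 are described. An exact permutation test of 3 against 3 libraries cannot give a two-sided p below 0.1, and 5 pairs reached 0.1, each with an adjusted p of 0.24 over the 12 pairs, so no pair passed. The ratio of Myom2 to Myom1 was the tightest in NTG. Per length, Myom2 was at 83.6%, 80.7% and 81.0% of Myom1 in NTG and at 98.3%, 121% and 103% in TG. The mean log2 ratio of CPM was -0.53 ± 0.028 in NTG and -0.14 ± 0.16 in TG (SD, n = 3 each), a difference of 0.39 that stayed between 0.30 and 0.45 when any 1 library was left out. NTG 1, which held few Hint2 counts, lay with the other NTG libraries in this ratio.

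Tpm2 was at 1.60%, 1.17% and 1.59% of Tpm1 per length in NTG and 2.01%, 2.47% and 1.75% in TG, a difference of 0.51 in the log2 ratio, so alpha-tropomyosin made up nearly all of this pair in every library. Tnnt1, the slow skeletal troponin T, was at 0.338% to 0.412% of Tnnt2 in NTG and 0.498% to 0.587% in TG, a difference of 0.49. Both pairs were higher in TG without overlap, from a small numerator.

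Actn1, the alpha-actinin of non-muscle cells, was at 3.11%, 7.03% and 4.76% of Actn2 in NTG and 2.14%, 3.06% and 2.56% in TG, a difference of -0.88 in the log2 ratio without overlap. It was highest in NTG 2, the library with the highest fibroblast and macrophage marker sums. Without NTG 2 the difference was -0.59, and the part of non-muscle cells in it was not tested. Myoz1 to Myoz2 was lower in TG without overlap, at -2.02, from the few Myoz1 counts given above. Acta1, the skeletal alpha-actin that the fetal and pressure-loaded heart uses beside Actc1, was at 66.6%, 91.2% and 106% of Actc1 per length in NTG and 59.4%, 86.2% and 41.7% in TG. The groups overlapped, and the difference was -0.53 (exact p = 0.2, adjusted 0.343), or -0.27 without TG 3 and -0.80 without TG 2. Lmod3 to Lmod2 was higher in TG by 0.67 with overlap (exact p = 0.2), and Tnni1/Tnni3, Tpm3/Tpm1, Myom3/Myom1 and Pdlim1/Pdlim5 had exact p of 0.3 to 0.6 and differences of -0.55, -0.15, -0.32 and 0.12.

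**Figure D5:**
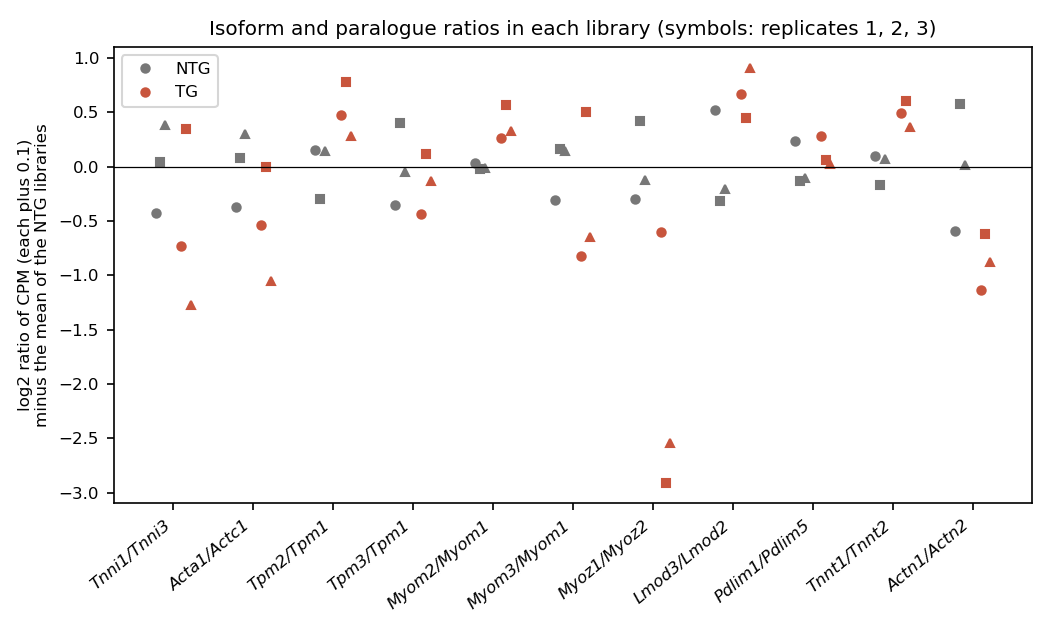
Log2 ratio of CPM (each plus 0.1) minus the mean of the NTG libraries (y axis) for 11 pairs (x axis), with grey points for NTG and red points for TG and a symbol for each replicate number. Tpm2/Tpm1, Myom2/Myom1 and Tnnt1/Tnnt2 lie higher in all 3 TG libraries than in any NTG library, and Myoz1/Myoz2 and Actn1/Actn2 lower.

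Another 74 sarcomere genes, in 4 lists by the same roles, were read from the same fit, and 68 were tested. By edgeR 0 were called, 8 were higher and 7 lower at an unadjusted p under 0.05 (22.1% against 18.6% of all genes), and the median log2 fold change was 0.017, a value near 0 that ran from 0.00046 to 0.063 with 1 library left out and was -0.063 with library size alone. Without NTG 1, edgeR called 3 higher (Tmod4, Mybpc2 and Hspb3) and 2 lower (Fhl1 and Actn1), against 2.67% and 2.85% of all genes, and 13 were higher and 9 lower at an unadjusted p under 0.05, against 13.7% and 13.3%. The counts per list that follow are at that unadjusted p, for which the shares of all genes were 8.83% higher and 9.76% lower, and with all 6 libraries no gene in them passed after adjustment by edgeR. In the thin filament list, 3 of 14 tested genes were higher and 2 lower. Acta2, the smooth muscle alpha-actin, was at 88.5, 83.5 and 88.6 CPM in NTG and 120, 114 and 115 CPM in TG, without overlap, at a log2 fold change of 0.42 ± 0.08 (adjusted p = 0.196). Tmod4, a skeletal muscle tropomodulin, was at 0.87 ± 0.23 and Tnnt1 at 0.77 ± 0.23, while Capza1 was at -0.26 ± 0.10, Tpm4, a non-muscle tropomyosin, at -0.35 ± 0.14 and Tmod2 at -0.28 ± 0.16.

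In the titin and M-band list, 3 of 17 were higher and 1 lower at an unadjusted p under 0.05, with Mybpc2, the myosin-binding protein C of fast skeletal muscle, at 0.55 ± 0.14, Trim55 at 0.24 ± 0.10, Fhl1, a LIM protein of the titin spring, at -1.13 ± 0.33, Ankrd1, a stress-responsive ankyrin repeat protein, at -0.52 ± 0.25 and Smpx at -0.25 ± 0.12. Fhl1 was at 310, 625 and 613 CPM in NTG and 248, 300 and 159 CPM in TG, lower in TG without overlap, with NTG 1 nearest to TG. In the Z-disc list 0 of 20 were higher and 3 lower, 15 had fitted values below 0, and the median was -0.12 against 0.042 for the 17 Z-disc genes described above, a difference between the lists that was not tested. There Actn1 was at -0.81 ± 0.23, Xirp2, a Xin repeat protein, at -0.83 ± 0.30 and Des, desmin, at -0.52 ± 0.21, and Csrp3, the muscle LIM protein, Cavin4 and Xirp1 were at 0.27 ± 0.14, 0.21 ± 0.11 and 0.28 ± 0.21. In the assembly and chaperone list 2 of 17 were higher and 1 lower, with Stub1, a ubiquitin ligase of chaperone clients, at 0.36 ± 0.10, Hspb3 at 0.57 ± 0.24 and Hsp90ab1 at 0.24 ± 0.17, and with Dnajb6 at -0.22 ± 0.09, Klhl41 at -0.24 ± 0.17 and Cct2 at -0.05 ± 0.08. DESeq2 called 4 of the 68, Tmod4 and Mybpc2 higher and Fhl1 and Actn1 lower, where it called 1.54% of all genes higher and 2.4% lower. Several of these genes are used by smooth muscle or connective tissue cells, and Tmod4, Tnnt1 and Mybpc2 by skeletal muscle. The smooth muscle markers, to which Acta2 belongs, had log2 fold changes from -0.61 for Tagln to 0.75 for Cnn1, as described beside Tpm2. The 12 skeletal muscle markers summed to 5.10 to 6.69 CPM in NTG and 9.09 to 11.0 CPM in TG. The part of any of these cells in the values was not tested.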

How the data were processed

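Left ventricular RNA of 3 TG and 3 NTG hearts was sequenced after AB. Reads were cleaned by in-house scripts, aligned (HISAT2, per the submitters' processing notes), used for transcript prediction (StringTie) and assigned to genes by featureCounts, and the authors deposited these raw counts for each heart, with no normalization and no pooling. The strand setting and the treatment of reads mapping to several places are not given in the sources used here. The notes name GRCh38, a human build, whereas 98.3% of the 54495 genes found in GENCODE mouse release 21 (GRCm38) and all 37 members had identical coordinates there. All 6 count columns were matched to their libraries by label.

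The TG and NTG counts were compared by edgeR 4.0.16 under R 4.3.3 (TMM scaling, filterByExpr by group, robust dispersion, glmQLFit and glmQLFTest, no covariate), with Benjamini-Hochberg adjustment over 14774 genes. Calls needed both a log2 fold change beyond 0.5 in either direction and an adjusted p below 0.05. SE is the log2 fold change over the root of its F statistic. The common biological coefficient of variation was 18.7%, and TMM factors were 0.929 to 1.073. Ratios of related genes used CPM plus 0.1 and an exact two-sided permutation test in scipy 1.17.1, with the difference of mean log2 ratios as the statistic. Overlaps with other genes were read from the GENCODE exons, shared sequence as 50-base runs of its transcripts, and promoters from RefSeq (GRCm38.p6). Motifs were searched in the 250 bases before each start. Tests were tried on simulated data first. Alternatives were other scalings, no or a stricter filter on low counts (10 counts in every library), DESeq2 1.42.0, limma 3.58.1 (voom), the likelihood-ratio test, an offset for gene length, a replicate block and each library left out. DESeq2 with each library left out was chosen after seeing the data.

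The members, the lists, the pairs and the motifs were chosen with earlier results of these data known. Values in every library are given for the 6 members with the smallest p in each direction and for 13 preset members, and for Lmod3 and Unc45b because of the fit without NTG 1. Of the further lists, the 3 genes with the smallest p in each direction are named, apart from 1 gene that is not reported here, alone or in a pair. Whether litters or days were shared between hearts is not given in the labels, so p-values measure the spread between these hearts. The precision of each value rests on 3 hearts a group, and counting error weighs most on Tnni1 and Myoz1.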

Additional observations from a re-analysis of the deposited data

How the results depend on the processing

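No member was called with all 6 libraries under any scaling, filter, test, offset or block tried, while the counts at an unadjusted p under 0.05, 4 higher and 0 lower as reported, moved. They were 2 higher and 2 lower with library size alone (6.19% and 12.5% of all genes), 7 and 1 without the low-count filter (6.08% and 6.35%), 7 and 2 with DESeq2 (8.96% and 9.35%), and 2 lower with limma-voom (9.52%) and with the likelihood-ratio test (9.5%). Over all genes, where edgeR called 0, no low-count filter gave 116 called higher and 116 lower, DESeq2 228 and 355, limma-voom 1 higher, and the likelihood-ratio test 206 and 339. Groups did not overlap for 4 members higher and 4 lower with library size alone, against 8.66% and 14.6% of all genes. That setting put the median of all genes at -0.093 and that of the 36 members at 0.058, while counts without overlap are not affected by the filter, the test or the block. The causes were not tested.

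Whether the replicate numbers pair the hearts is not given in the labels. Deviations of same-numbered libraries correlated at 0.0807, 0.1733 and -0.2519, and those of differently numbered libraries at -0.2532 to 0.1673. With 3 libraries a group these values cannot decide whether hearts were paired. With a replicate block, 8 members were higher and 1 lower at an unadjusted p under 0.05, against 11.2% and 10.7% of all genes, and 9 and 1 with the gene length offset as well, against 12% and 9.5%. At an adjusted p, 0 members were called in either fit, while over all genes 84 were called higher and 147 lower with the block and 109 and 135 with the block and the offset. The log2 fold change of Tpm1 changed sign to 0.033 with the gene length offset and to 0.029 with the block and the offset.

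Leaving out 1 library gave 0 to 404 genes called higher and 0 to 432 lower with edgeR. DESeq2 gave 896 higher and 877 lower without NTG 1, 47 and 76 without NTG 2, 40 and 129 without NTG 3, 103 and 76 without TG 1, 292 and 486 without TG 2, and 29 and 67 without TG 3. For the members, leaving out 1 library gave 0 to 2 called higher (0 to 5 with DESeq2 included) and 0 lower (0 to 1), 1 to 10 higher (1 to 12) and 0 to 2 lower (0 to 3) at an unadjusted p under 0.05, and 2 to 11 higher and 2 to 4 lower without overlap. The upper ends of the higher counts came without NTG 1, and the 1 member called lower came without TG 2. Single libraries turned the sign of values near 0, over ranges of -0.11 to 0.076 for Tpm1, -0.0011 to 0.18 for Actn2 and -0.33 to 0.051 for Tpm3/Tpm1. The sign also turned for Pdlim3 (-0.067 to 0.13), Palld (-0.043 to 0.044) and Ablim1 (-0.16 to 0.014).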
